A study of Sus scrofa with 10 samples.

Results

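A set of 9 corticosteroid signalling genes was followed in nuclear RNA of sorted minipig cardiomyocytes: the mineralocorticoid receptor gene NR3C2, the glucocorticoid receptor gene NR3C1, the activating enzyme gene HSD11B1, and the target genes FKBP5, SGK1, TSC22D3, ZBTB16, KLF9 and KLF15. They were chosen by gene name, with 8 of the 9 named in the deposited tables and TSC22D3 named through a reference table of pig genes. They are 9 of 35670 gene identifiers, and all 9 were among the 17251 that passed the filter on low counts and entered the tests. The 10 libraries had been made from pig (Sus scrofa) hearts: 3 with deoxycorticosterone acetate (DOCA) and JK07 (libraries 8 to 10), 2 with DOCA alone (libraries 6 and 7), and 5 controls with phosphate-buffered saline (libraries 1 to 5). Every library was labelled wild type, and the title of the series calls JK07 an agonist of ERBB4, a receptor for neuregulins. The sources used here do not give the heart chamber, the doses, the times, the animals' ages or any salt loading. Whether each library was made from a different animal is not stated in the labels. The p-values therefore set group differences against the spread among these libraries only, and that spread may be technical.

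DOCA is the acetate of a natural corticosteroid that binds the mineralocorticoid receptor and makes the kidney retain sodium. The mineralocorticoid and glucocorticoid receptors are closely related transcription factors that are held by chaperones until a steroid binds, then enter the nucleus and act at shared response elements, so that most genes they control answer to both. Cardiomyocytes carry both receptors but little of the enzyme HSD11B2, which in the kidney inactivates cortisol, and cortisol can therefore occupy the mineralocorticoid receptor in heart muscle. Of the target genes, FKBP5 encodes a co-chaperone that lowers the receptors' affinity for steroid, and SGK1 encodes the kinase through which aldosterone stimulates sodium channels in the kidney. TSC22D3 encodes the anti-inflammatory protein GILZ, and ZBTB16, KLF9 and KLF15 encode transcription factors.

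The libraries totalled 28.1 to 106 M estimated counts (M, mega), and scaffolds of ribosomal RNA took 77.6% to 90.8% of them. When those scaffolds and mitochondrial genes were set aside, 9.03 to 12.9 M counts remained with DOCA plus JK07, 6.87 and 3.30 M in DOCA libraries 6 and 7, and 8.67 to 13.9 M in controls. Both DOCA libraries stood apart: of 13430 genes above 0 in at least 8 libraries, 19.2% and 23.8% were listed at 0 in libraries 6 and 7, against 0.0968% to 1.57% in the other 8. By this rule a gene at 0 in both DOCA libraries had to be above 0 in the other 8, which lowers their shares. All 13 mitochondrially encoded genes were lower in DOCA than in control and higher in DOCA plus JK07 than in DOCA. Their summed level was 843 to 1813 CPM (estimated counts scaled to library size) with DOCA plus JK07, 157 and 70.3 CPM in DOCA, and 521 to 1019 CPM in controls, and their part in the results below was not tested. Cardiomyocyte marker RNA was abundant in every library, with a summed level over 10 genes of 5075 to 8120 CPM with DOCA plus JK07, 5728 and 3310 CPM in DOCA, and 4179 to 5151 CPM in controls. Fibroblast marker RNA was also present, and its sum over 12 genes was 3294 CPM beside 3310 CPM of cardiomyocyte markers in DOCA library 7, and 3154 beside 4179 CPM in control library 5. MYL2, the ventricular light chain, was at 0 in both DOCA libraries and at most 1.79 CPM elsewhere. Fewer cells of a type and less RNA per cell cannot be told apart in such libraries.

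The levels of the genes in control nuclei are given first, in TPM, which corrects for transcript length. The median of the 5 controls was 24.1 TPM for ZBTB16 and 21.1 TPM for FKBP5, then 11.1 TPM for KLF9, 8.07 TPM for SGK1, 6.43 TPM for NR3C1, 5.95 TPM for KLF15 and 3.84 TPM for NR3C2. HSD11B1 had 2.23 TPM and TSC22D3 0.70 TPM. Neighbours in this order overlapped across control libraries from ZBTB16 down to KLF15. NR3C2 lay below KLF15 in every control (3.22 to 4.46 TPM for NR3C2 and 4.84 to 7.51 TPM for KLF15), HSD11B1 below NR3C2 (1.84 to 2.38 TPM for HSD11B1), and TSC22D3 below HSD11B1 (0.52 to 1.16 TPM for TSC22D3). The value of TSC22D3 covers a small part of its locus, as described below. The glucocorticoid receptor gene stood above the mineralocorticoid receptor gene.

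**Figure D1:**
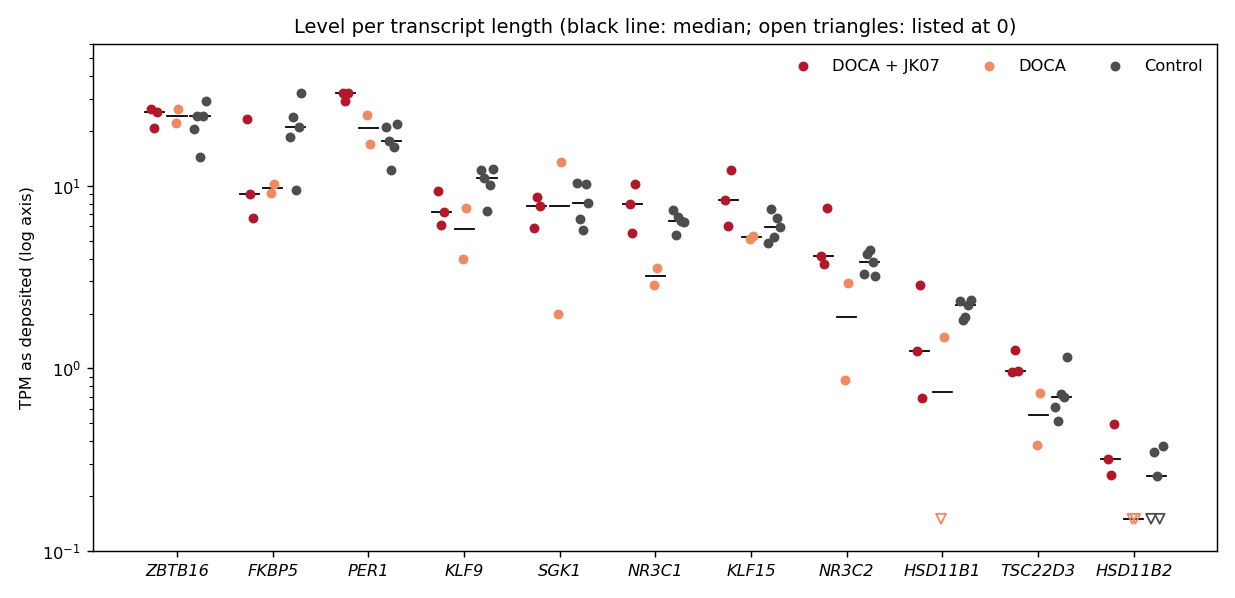
Deposited TPM of each gene on a log axis, with 1 point per library coloured by group and genes in the order of their control median. ZBTB16 and FKBP5 lie highest, at control medians of 24.1 and 21.1 TPM, and the TSC22D3 identifier lies lowest among the 9 genes, at 0.70 TPM.

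With edgeR on the estimated counts, no receptor or target gene passed the adjusted p threshold of 0.05 in any of the 3 comparisons. For DOCA against control, 0 of 9 were called, with 25.5% of all tested genes called (988 or 5.73% higher and 3403 or 19.7% lower). In DOCA plus JK07 against DOCA, 0 of 9 were called, with 17% of all tested genes called (2542 or 14.7% higher and 388 or 2.25% lower). In DOCA plus JK07 against control, 0 of 9 were called and the background was 0% of all tested genes, with 803 genes at an unadjusted p under 0.05 in edgeR, where 863 would be so with no change, and 116 called by DESeq2. The split of calls moved with the scaling: upper-quartile scaling gave 1523 higher and 2868 lower genes for DOCA against control, and 2095 higher and 752 lower for DOCA plus JK07 against DOCA. Tests on log2(TPM + 1) gave 212 higher and 3435 lower genes for DOCA against control, and 3906 higher and 63 lower for DOCA plus JK07 against DOCA. A p above the threshold does not show that a gene was equal between groups, and the values per library follow.

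**Figure D2:**
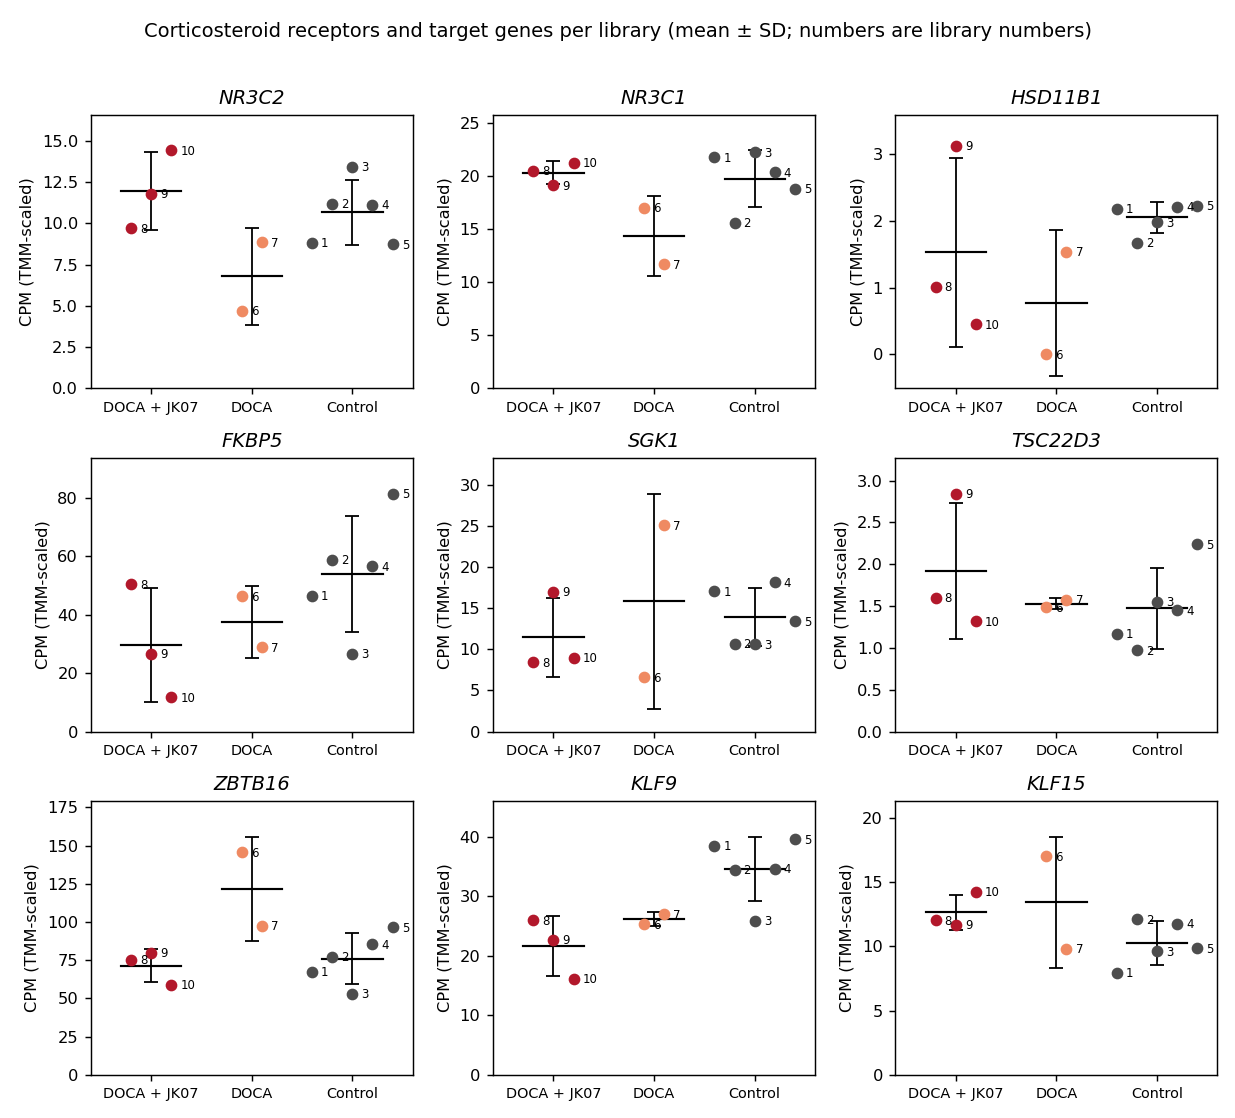
CPM after TMM scaling of the 9 genes in each library, with the library number beside its point and the mean ± SD of each group. For ZBTB16 both DOCA libraries (97.4 and 146 CPM) lie above every other library, while DOCA plus JK07 and control overlap, and KLF9 averages 21.6 CPM with DOCA plus JK07, 26.1 CPM in DOCA and 34.6 CPM in controls.

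The receptor genes were compared first. NR3C2 (ENSSSCG00000037766, chromosome 8, 80312234 to 80668412) encodes the receptor that DOCA activates. It had 9.72, 11.8 and 14.4 CPM with DOCA plus JK07, 4.71 and 8.87 CPM in DOCA, and 8.82, 11.2, 13.4, 11.1 and 8.73 CPM in controls. Library 6 was the lowest of all 10, library 7 lay within the control range, and the 3 JK07 libraries lay above both DOCA libraries. The log2 fold change was −0.65 (standard error, SE, 0.29) for DOCA against control with an adjusted p of 0.145, beside a median of −0.63 over all genes tested. For DOCA plus JK07 against DOCA it was 0.82 (SE 0.32, adjusted p 0.116), beside an all-gene median of 0.55. Without DOCA library 7, NR3C2 passed the threshold for DOCA against control at a log2 fold change of −1.18 and an adjusted p of 0.0242, and without library 6 it was −0.27 at 0.529, each value resting on 1 DOCA library.

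NR3C1 (ENSSSCG00000014401, chromosome 2, 144822939 to 144956451), the glucocorticoid receptor gene, varied less. It had 20.5, 19.1 and 21.3 CPM with DOCA plus JK07, 17.0 and 11.7 CPM in DOCA, and 21.8, 15.6, 22.2, 20.3 and 18.8 CPM in controls. Library 7 was the lowest, where for NR3C2 it had been library 6. The coefficient of variation with DOCA plus JK07 was 5.30%, which ranked at percentile 4.71 of the 8963 genes above 0 in all libraries, beside a median of 20.8% for those genes. NR3C1 gave a log2 fold change of −0.46 (SE 0.20, adjusted p 0.132) for DOCA against control and 0.50 (SE 0.22, adjusted p 0.156) for DOCA plus JK07 against DOCA. Without library 6 the change against control was −0.76 with an adjusted p of 0.0432, past the threshold, and without library 7 it was −0.22 at 0.488. In DOCA plus JK07 against control the receptors differed by 0.17 (SE 0.25) for NR3C2 and 0.04 (SE 0.17) for NR3C1 on the log2 scale, each with an adjusted p of 1.00.

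On the deposited TPM the receptor genes of the DOCA libraries stood lower, and their calls changed. NR3C2 had 3.72 to 7.61 TPM with DOCA plus JK07, 0.87 and 2.94 TPM in DOCA, and 3.22 to 4.46 TPM in controls. NR3C1 had 5.52 to 10.3, 2.87 and 3.53, and 5.41 to 7.43 TPM in the same groups. Neither gene overlapped between DOCA and the other groups on this scale, and the all-gene share without overlap was not taken there. HSD11B1 was also lower than control without overlap, and TSC22D3 and KLF15 were higher in DOCA plus JK07 than in DOCA. Without that share, these gaps cannot be read as particular to these genes. Most calls on log2(TPM + 1) went the same way, with 3435 lower and 212 higher genes for DOCA against control. For DOCA plus JK07 against DOCA they were 3906 higher and 63 lower. With ribosomal RNA scaffolds and mitochondrial genes out of the total, library 7 fell inside the control range. It had 41.4 for NR3C2 (controls 32.2 to 49.3) and 49.9 for NR3C1 (controls 47.5 to 74.8), and library 6 had 9.01 and 29.8. In limma on log2(TPM + 1), NR3C1 passed the threshold for DOCA against control (−0.83, adjusted p 0.0303) and for DOCA plus JK07 against DOCA (1.06, adjusted p 0.0147), and NR3C2 passed it for DOCA plus JK07 against DOCA (1.13, adjusted p 0.0192) but not for DOCA against control (−0.82, adjusted p 0.0543). That fit called 3647 of 10319 genes for DOCA against control and 3969 of 10319 for DOCA plus JK07 against DOCA. Its all-gene medians were −0.50 for DOCA against control and 0.66 for DOCA plus JK07 against DOCA, and the total behind deposited TPM includes ribosomal RNA.

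Counting the groups that do not overlap in CPM, NR3C2 and NR3C1 were the 2 of 9 genes higher in DOCA plus JK07 than in DOCA, where 30.3% of all tested genes had no overlap in that direction. ZBTB16 was the 1 of 9 in the other direction, beside 9.82% of all tested genes. In DOCA against control, ZBTB16 was the 1 of 9 genes without overlap that lay higher, with a background of 10.2%, and HSD11B1 the 1 that lay lower, with a background of 27.6%. DOCA plus JK07 against control had 0 of 9 in either direction, with backgrounds of 3.37% higher and 2.45% lower. The receptors' count of 2 was not above its background share.

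The balance between the receptors was read within each library, as the ratio of NR3C2 to NR3C1 in TPM, which does not depend on scaling between libraries. It was 0.518, 0.674 and 0.742 with DOCA plus JK07, 0.303 and 0.831 in DOCA, and 0.443, 0.784, 0.660, 0.597 and 0.507 in controls. The mineralocorticoid receptor gene was below the glucocorticoid receptor gene in all 10 libraries. The 2 DOCA libraries held the lowest and the highest ratio of the series, so that the DOCA group had no common direction.

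**Figure D3:**
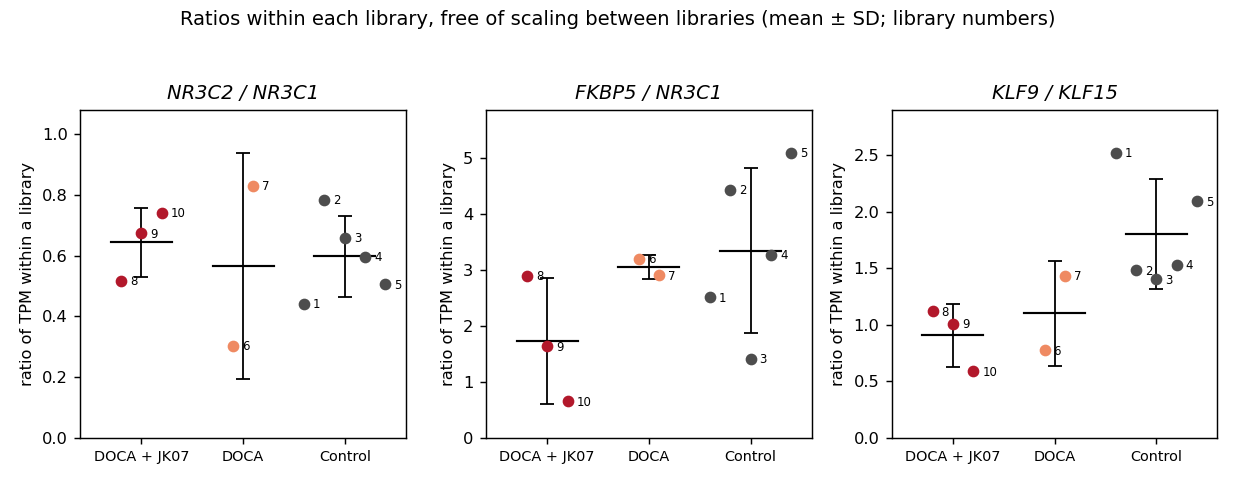
Ratios of deposited TPM within each library, for NR3C2 over NR3C1, FKBP5 over NR3C1 and KLF9 over KLF15, with 1 point per library and the mean ± SD of each group on a linear axis. The receptor ratio lies below 1 in all 10 libraries, and KLF9 over KLF15 lies at 0.588 to 1.12 with DOCA plus JK07, 0.772 and 1.43 in DOCA, and 1.40 to 2.52 in controls.

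The enzymes that set the active steroid in the cell came next. HSD11B1 (ENSSSCG00000015616, chromosome 9, 133231451 to 133278396) regenerates cortisol from inactive cortisone. It had 1.01, 3.12 and 0.45 CPM with DOCA plus JK07, 0 and 1.54 CPM in DOCA, and 2.18, 1.67, 1.98, 2.21 and 2.22 CPM in controls. The 5 controls were close together, whereas the 3 JK07 libraries lay both above and below them. DOCA library 6 was listed at 0, where no reads and too few reads to be listed cannot be told apart. The coefficient of variation was 92.2% with DOCA plus JK07, and its differences did not pass the test (adjusted p 0.445 for DOCA and 1.00 for DOCA plus JK07 against control, and 0.671 between them), though on log2(TPM + 1) DOCA against control gave −0.99 at an adjusted p of 0.0334. In the heart this enzyme is found mainly in fibroblasts and other non-muscle cells, and the summed level of the fibroblast marker list was 1598, 2410 and 963 CPM with DOCA plus JK07, 1147 and 3294 CPM in DOCA, and 1383, 980, 1825, 1177 and 3154 CPM in controls. Library 10 was lowest and library 9 highest for both measures within the JK07 group, and library 6 was below library 7 for both within DOCA, while control library 5 was high for the fibroblast list alone; the part of fibroblast RNA was not tested. HSD11B2, which inactivates cortisol, had at most 0.47 CPM and was listed at 0 in both DOCA libraries and in control libraries 1 and 4. Of the 15 genes on a list of corticosteroid synthesis and metabolism, 8 could be tested, and 0 were called in any comparison at the backgrounds above.

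FKBP5 (ENSSSCG00000001549, chromosome 7, 31440842 to 31567487), the co-chaperone gene used in many tissues as a readout of glucocorticoid receptor activity, spread widely within groups. It had 50.5, 26.7 and 11.7 CPM with DOCA plus JK07, 46.3 and 28.8 CPM in DOCA, and 46.5, 58.8, 26.7, 56.5 and 81.5 CPM in controls. All 3 groups overlapped, with control library 5 the highest and JK07 library 10 the lowest. The coefficient of variation was 65.9% with DOCA plus JK07 and 36.9% in controls, at percentiles 97.9 and 85.3 of genes above 0 in all libraries. The log2 fold change was −0.52 (SE 0.56, adjusted p 0.513) for DOCA against control and −0.87 (SE 0.49, adjusted p 1.00) for DOCA plus JK07 against control. Relative to the receptor that controls it, the FKBP5 to NR3C1 ratio in TPM was 2.90, 1.64 and 0.650 with DOCA plus JK07, 3.20 and 2.91 in DOCA, and 2.51, 4.44, 1.41, 3.27 and 5.10 in controls. The DOCA libraries lay within the control range of this ratio, and JK07 library 10 lay below it.

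TSC22D3 was counted at an identifier (ENSSSCG00000056590, chromosome X, 88230048 to 88233098) that covers 3.1 kb at the upstream end of the 62.3 kb which RefSeq gives the gene. It had 1.60, 2.84 and 1.32 CPM with DOCA plus JK07, 1.48 and 1.57 CPM in DOCA, and 1.17, 0.97, 1.55, 1.45 and 2.24 CPM in controls, from 47 to 236 estimated counts per library. All 3 groups overlapped, with a log2 fold change of 0.05 (SE 0.43, adjusted p 0.945) for DOCA against control. An identifier without a name (ENSSSCG00000030241, chromosome X, 88171334 to 88179750) lies on the same strand at the other end of the same RefSeq span. It was more abundant, at 13.3, 19.7 and 9.29 CPM with DOCA plus JK07, 7.78 and 16.5 CPM in DOCA, and 17.6, 15.1, 16.2, 18.4 and 22.2 CPM in controls. Its log2 fold change for DOCA against control was −0.56 (SE 0.35, adjusted p 0.280). The level printed for TSC22D3 therefore covers a small part of the locus.

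SGK1 (ENSSSCG00000021443, chromosome 1, 29745114 to 29753602) encodes a kinase that mineralocorticoids rapidly induce in kidney cells. It had 8.41, 17.0 and 8.98 CPM with DOCA plus JK07, 6.60 and 25.1 CPM in DOCA, and 17.1, 10.7, 10.6, 18.1 and 13.4 CPM in controls. The DOCA libraries were the lowest and the highest of the series, so the group mean of 15.9 ± 13.1 CPM (SD, n = 2) describes neither. The direction of the DOCA difference followed from the library kept: the log2 fold change was 0.18 (SE 0.49, adjusted p 0.815) with both, −1.09 without library 7, and −0.45 on log2(TPM + 1). The identifier spans 8.5 kb, against 127.8 kb for the gene in RefSeq, and so leaves out its upstream promoters.

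ZBTB16 (ENSSSCG00000030095, chromosome 9, 41639701 to 41836742) encodes the zinc finger protein PLZF, and glucocorticoids induce it in many human cell types. It was the gene of this set that came nearest to separating the groups, at 75.4, 79.8 and 59.0 CPM with DOCA plus JK07, 146 and 97.4 CPM in DOCA, and 67.3, 77.2, 52.9, 85.5 and 96.6 CPM in controls. Both DOCA libraries lay above the other 8, although library 7 (97.4 CPM) was close to control library 5 (96.6 CPM). The log2 fold change was 0.68 (SE 0.26, adjusted p 0.0910) for DOCA against control, 1.31 above the all-gene median, and −0.77 (SE 0.29, adjusted p 0.103) for DOCA plus JK07 against DOCA. The call depended on the fit: with DESeq2 the change against control was 0.75 at an adjusted p of 0.0205, with upper-quartile scaling it was 0.91 at 0.0241, and without library 7 it was 0.94 at 0.0485. Without library 6 it was 0.36 at 0.451, and quality weights per library gave an adjusted p of 0.268. On the TPM scale the groups overlapped, at 20.7 to 26.4 TPM with DOCA plus JK07, 22.1 and 26.5 TPM in DOCA, and 14.5 to 29.3 TPM in controls. With DOCA plus JK07 against control the log2 fold change was −0.09 (SE 0.23, adjusted p 1.00).

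KLF9 (ENSSSCG00000021646, chromosome 1, 223720435 to 223748621) is a Krüppel-like factor gene that both receptors can induce. Its CPM was 26.0, 22.7 and 16.1 with DOCA plus JK07, 25.3 and 27.0 in DOCA, and 38.5, 34.5, 25.9, 34.6 and 39.6 in controls. In 4 of 5 controls KLF9 lay above all libraries that received DOCA, and control library 3 lay among them. Group means were 21.6 ± 5.02 CPM with DOCA plus JK07 (SD, n = 3), 26.1 ± 1.21 CPM in DOCA (SD, n = 2) and 34.6 ± 5.38 CPM in controls (SD, n = 5). The log2 fold change was −0.68 (SE 0.20) for DOCA plus JK07 against control, with an unadjusted edgeR p of 0.0078 and an adjusted p of 1.00. It was −0.40 (SE 0.23, adjusted p 0.237) for DOCA against control, 0.23 above the all-gene median.

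KLF15 (ENSSSCG00000036742, chromosome 7, 53877818 to 53889144) encodes a repressor of cardiac hypertrophy in mice and a regulator of branched-chain amino acid and lipid use. It had 12.0, 11.7 and 14.2 CPM with DOCA plus JK07, 17.0 and 9.80 CPM in DOCA, and 7.93, 12.1, 9.61, 11.8 and 9.84 CPM in controls. Library 6 was the highest and library 7 lay inside the control range. Its log2 fold change was 0.39 (SE 0.24, adjusted p 0.276) for DOCA against control, but −0.16 on log2(TPM + 1), and 0.30 (SE 0.21, adjusted p 1.00) for DOCA plus JK07 against control. Within a library, KLF9 over KLF15 in TPM was 1.12, 1.01 and 0.588 with DOCA plus JK07, 0.772 and 1.43 in DOCA, and 2.52, 1.48, 1.40, 1.53 and 2.09 in controls. All 3 JK07 libraries lay below all 5 controls, and the DOCA libraries lay on either side of the lowest control. This pair was chosen after its values were seen and was not tested.

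**Figure D4:**
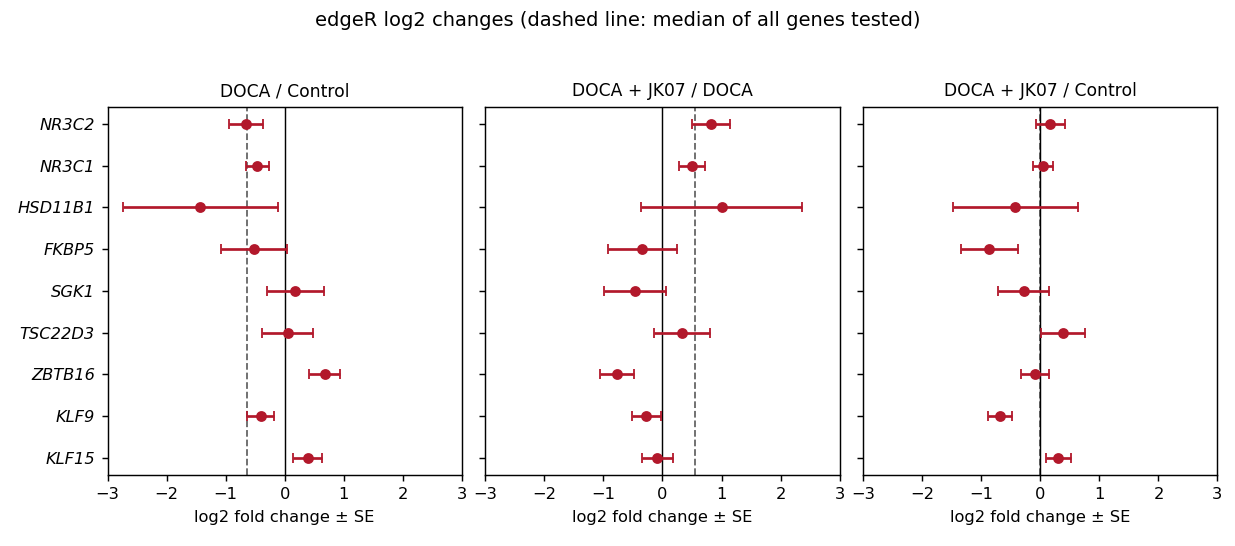
Log2 fold change ± SE of the 9 genes in the 3 comparisons from the edgeR fit, with the dashed line at the median of all genes tested (−0.63, 0.55 and −0.00). None of the 9 is called, ZBTB16 has the highest value for DOCA against control (0.68), and KLF9 has −0.68 for DOCA plus JK07 against control.

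Across the 9 genes the median log2 fold change was −0.40 for DOCA against control, beside −0.63 over all genes tested. It was −0.09 for DOCA plus JK07 against DOCA, beside 0.55, and −0.09 for DOCA plus JK07 against control, beside −0.00. These comparisons share libraries and are not independent. PER1, a clock gene that glucocorticoids induce and that is no member of the set, was followed beside it. It had 92.7, 113 and 74.7 CPM with DOCA plus JK07, 163 and 63.0 CPM in DOCA, and 68.6, 57.1, 44.9, 57.8 and 72.9 CPM in controls. All 3 JK07 libraries lay above all 5 controls, whereas DOCA library 7 lay among them. Its log2 fold change was 0.63 (SE 0.30, adjusted p 1.00) for DOCA plus JK07 against control and 0.91 (SE 0.34, adjusted p 0.0836) for DOCA against control.

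Some co-regulators that the receptors bind passed the test. On a list of 22 chaperones and co-regulators, 4 were lower and 3 higher in DOCA than in control (31.8% called, beside 25.5% of all genes), with a list median of −0.48. Between DOCA plus JK07 and DOCA, 4 were higher and 0 lower with JK07 (18.2% called, beside 17% of all genes), with a list median of 0.15. These shares and those of the lists below are set beside the all-gene shares as a description. The list medians here and below stand beside all-gene medians of −0.63 for DOCA against control and 0.55 for DOCA plus JK07 against DOCA. NCOA1 and NCOA3, coactivators of steroid receptors, and NRIP1, a ligand-dependent corepressor, had the lowest adjusted p of those in DOCA against control. NCOA1 fell to 2.00 and 3.01 CPM in DOCA, against 11.6 to 14.3 CPM in controls (log2 fold change −2.38, SE 0.21, adjusted p 4.7e-05), and was at 11.0 to 11.6 CPM with DOCA plus JK07 (2.18 against DOCA, SE 0.22, adjusted p 9.4e-05). NCOA3 had 17.2 to 20.9 CPM with JK07, 5.73 and 8.93 CPM in DOCA and 19.6 to 25.7 CPM in controls, and NRIP1 had 5.01 to 6.17, 2.92 and 3.81, and 7.15 to 7.92 CPM in the same groups. Neither DOCA library reached the range of the other 8 for these 3 genes. MED1, a Mediator subunit that binds nuclear receptors, was higher in DOCA plus JK07 than in DOCA (log2 fold change 0.90, SE 0.18, adjusted p 0.00708). It had 8.67 to 11.0 CPM with DOCA plus JK07, 5.32 and 5.38 CPM in DOCA, and 9.06 to 11.5 CPM in controls. With quality weights per library, NCOA1 and NCOA3 were called for DOCA against control and NRIP1 was not (adjusted p 0.0890). In DOCA plus JK07 against DOCA the same weights left NCOA1, NCOA3 and MED1 above the threshold, at adjusted p of 0.0712, 0.117 and 0.201.

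Sodium handling is the best known output of the mineralocorticoid receptor. Of 13 such genes, 8 could be tested: 2 were higher and 0 lower in DOCA than in control (25% called, beside 25.5% of all genes, list median 0.62), and 0 were higher and 1 lower in DOCA plus JK07 than in DOCA (12.5% called, beside 17%, list median −0.31). The summed level of the list was 139 to 222 CPM with DOCA plus JK07, 262 and 117 CPM in DOCA libraries 6 and 7, and 111 to 134 CPM in controls, so library 7 lay inside the control range. The genes not tested were SCNN1B and SCNN1G, which encode subunits of the epithelial sodium channel, SLC12A3, SLC9A3 and KCNJ1. CNKSR3, a scaffold protein that aldosterone induces in kidney tubule cells, where it assembles a complex with SGK1 and the channel, had 9.43, 7.69 and 7.37 CPM with DOCA plus JK07, 13.5 and 14.9 CPM in DOCA, and 5.92 to 6.94 CPM in controls. The 3 groups did not overlap, and both DOCA libraries were high. Its log2 fold change was 1.10 (SE 0.15, adjusted p 0.000585) for DOCA against control, and 1.02 to 1.17 when each library was left out in turn, with the call held each time. For DOCA plus JK07 against DOCA it was −0.80 (SE 0.17, adjusted p 0.0102). On log2(TPM + 1) CNKSR3 was not called in either comparison, at 0.45 (adjusted p 0.209) and −0.05 (adjusted p 0.894).

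**Figure D5:**
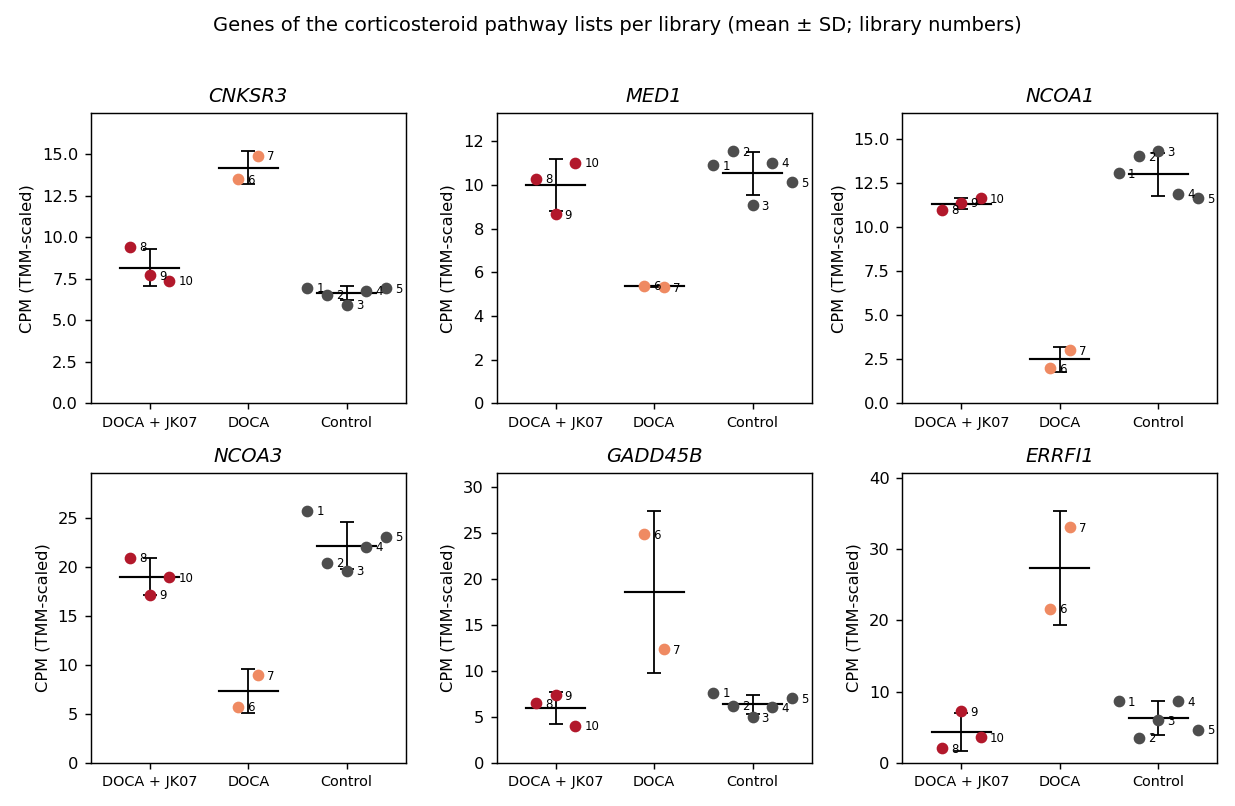
CPM after TMM scaling of genes around the receptors in each library, with the mean ± SD of each group. CNKSR3 lies at 13.5 and 14.9 CPM in DOCA, above every other library, and NCOA1 lies at 2.00 and 3.01 CPM in DOCA, below every other library.

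The pathway of SGK1 gave 0 higher and 5 lower of 16 genes in DOCA than in control (31.2% called, beside 25.5% of all genes, list median −0.03), and 4 higher and 0 lower in DOCA plus JK07 than in DOCA (25% called, beside 17%, list median 0.30). NEDD4, a ubiquitin ligase related to the SGK1 substrate NEDD4L, was listed at 0 in both DOCA libraries, against 7.22 to 9.54 CPM with DOCA plus JK07 and 5.39 to 11.9 CPM in controls. Such zeros were common, at 19.2% and 23.8% of genes above 0 in at least 8 libraries in libraries 6 and 7. NEDD4 was called in both comparisons, and each call was lost in 1 of the 20 alternatives. NDRG2, a substrate of SGK1, had 15.0 to 21.6 CPM with JK07, 9.57 and 9.77 CPM in DOCA, and 15.5 to 23.1 CPM in controls. For DOCA against control its log2 fold change was −1.06 (SE 0.21, adjusted p 0.00543), and that of RICTOR, a subunit of the complex that phosphorylates SGK1, was −1.37 (SE 0.34, adjusted p 0.0172). RICTOR was at −2.14 without library 6 and −0.87 without library 7, and quality weights ended its call (adjusted p 0.0894). WNK1, a kinase of ion transport, had 93.5 to 149 CPM with DOCA plus JK07, 47.8 and 70.0 CPM in DOCA, and 96.2 to 129 CPM in controls. Its log2 fold change was 1.06 (SE 0.26, adjusted p 0.0214) for DOCA plus JK07 against DOCA. In that comparison NDRG2 lost its call in 8 of the 20 alternatives and WNK1 in 7, and the fit without DOCA library 6 was among both. For DOCA against control, NDRG2 lost its call in 1 of the 20.

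Of 29 glucocorticoid responsive genes tested, 3 were higher and 6 lower in DOCA than in control (31% called, beside 25.5% of all genes, list median 0.26). Between DOCA plus JK07 and DOCA, 3 were higher and 4 lower with JK07 (24.1% called, beside 17%, list median −0.25). ARRDC3, an arrestin family gene, and PIK3R1, a regulatory subunit of phosphoinositide 3-kinase, were at 3.88 and 4.30 CPM and at 2.53 and 6.99 CPM in DOCA, against 12.6 to 29.3 CPM and 15.9 to 21.5 CPM in controls (log2 fold changes −2.26 and −1.94, SE 0.40 and 0.38, adjusted p 0.00287 and 0.00543). GADD45B, a stress sensor gene, was high in DOCA, at 4.04 to 7.38 CPM with DOCA plus JK07, 24.9 and 12.4 CPM in DOCA and 4.95 to 7.65 CPM in controls. ERRFI1, a feedback inhibitor of ERBB receptors, had 2.07 to 7.23 CPM with DOCA plus JK07, 21.6 and 33.0 CPM in DOCA, and 3.50 to 8.67 CPM in controls, and CEBPD, a transcription factor of the acute phase, had 8.31 to 19.0, 37.9 and 42.8, and 19.8 to 32.0 CPM in the same groups. For DOCA plus JK07 against DOCA the log2 fold changes were −2.67 for ERRFI1 (SE 0.55, adjusted p 0.00803), −1.58 for CEBPD (SE 0.32, adjusted p 0.00806) and −1.64 for GADD45B (SE 0.34, adjusted p 0.00895). CEBPD lost its call in 5 of the 20 alternatives (adjusted p up to 0.139) and ERRFI1 in 2 (up to 0.131). GADD45B lost its call in 5 of the 20 alternatives for DOCA plus JK07 against DOCA and in 2 for DOCA against control. The fit without library 6 was among them in both comparisons.

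A list of 19 cardiac mineralocorticoid receptor targets had 1 gene higher and 0 lower in DOCA than in control (5.26% called, beside 25.5% of all genes, list median 0.67), and 0 called in DOCA plus JK07 against DOCA (list median −0.31). Its summed level was 584 to 1439 CPM with DOCA plus JK07, 923 and 2062 CPM in DOCA libraries 6 and 7, and 535 to 1987 CPM in controls. DOCA library 7 and control library 5 were highest, as they were for the fibroblast markers, whose part was not tested. The gene called was CACNA1H, a T-type calcium channel subunit, at 10.6 to 14.4 CPM with DOCA plus JK07, 33.6 and 7.80 CPM in DOCA, and 4.02 to 8.66 CPM in controls. It rested on library 6: the log2 fold change was 1.59 (SE 0.46, adjusted p 0.0361) with both DOCA libraries and 0.18 without that one. Among 17 metabolic genes that KLF15 controls in mice, 0 were higher and 8 lower in DOCA than in control. That was 47.1% called, beside 25.5% of all genes in either direction and 19.7% lower, with a list median of −1.29 beside −0.63. Between DOCA plus JK07 and DOCA, 7 were higher and 0 lower with JK07. That was 41.2% called, beside 17% of all genes in either direction and 14.7% higher, with a list median of 1.38 beside 0.55. The enzyme genes ACADSB, ALDH6A1 and DBT, of the breakdown of branched-chain amino acids, were listed at 0 in both DOCA libraries, against 2.71 to 4.44, 4.17 to 6.26 and 2.80 to 3.81 CPM with DOCA plus JK07 and 4.36 to 6.11, 3.11 to 10.6 and 1.42 to 6.09 CPM in controls. These 3 enzyme genes were called in both comparisons, and each call was lost in 1 of the 20 alternatives. Zeros were common in DOCA libraries 6 and 7, at 19.2% and 23.8% of genes above 0 in at least 8 libraries. The lower quartile of the log2 fold changes over all genes tested was −6.18 for DOCA against control. KLF15 itself was not called. In DOCA plus JK07 against control, 0 genes were called in each of these lists.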

How the data were processed

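The 10 libraries hold RNA from nuclei of sorted cardiomyocytes, isolated by the TRIzol method and prepared with a TruSeq RNA kit, per the labels' protocols. The submitters' processing notes name StringTie, SAMtools and edgeR and the build Sscrofa11.1, while the aligner, annotation release, tool versions and strand setting are not given in the sources used here. A table for each library listed coverage signal, FPKM and TPM per gene, per the file headers. TPM was used as deposited, coverage served to check the join below, and the FPKM values the authors deposited were not used. The authors also deposited whole-number estimated counts with no gene column. These were joined to the gene identifiers in sorted order. Values were 0 in both tables or in neither for 99.998% of cells, against 62.6% with identifiers moved by 1 line, and each of the 10 columns matched the coverage of its library best. For genes under 1000 bp, 80.8% of 11103 values lay within 0.5 of coverage times length divided by 75, so the deposited counts were treated as estimated counts, already whole, so that rounding moved none. For a value listed at 0, no reads and too few reads to be listed cannot be told apart.

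The files named 17640 identifiers, and a reference table of Sscrofa11.1 named 119 more. Coordinates are 1-based and on that build. Groups were compared by the quasi-likelihood F test in edgeR 4.0.16 (R 4.3.3) with TMM scaling, filterByExpr and group as the only term over all 10 libraries, with Benjamini-Hochberg adjustment over 17251 genes at 0.05, separately for each comparison. Each SE was derived from the log2 fold change and its F statistic. The fit was tested on simulated counts for DOCA against control only. Their spread was smaller than in these data, so this checked the code and not the error rates here. CPM was computed from the deposited estimated counts after TMM scaling, with SD over libraries. The depth per library limits the precision of low genes; PCR copies could not be told from molecules. The 20 alternatives used other scalings and filters, DESeq2 1.42.0, limma 3.58.1 on TPM and with quality weights per library, the compared groups alone, and each library left out.

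The 9 genes and the 16 other lists were chosen with earlier results of these data known. Named from those lists, other than markers and mitochondrial genes, were up to 3 genes per list and comparison with the lowest adjusted p under 0.05, and HSD11B2 and PER1; genes further down were named where a result turned on them. Some list genes that this rule names are not reported here.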

Additional observations from a re-analysis of the deposited data

How the results depend on the processing

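No paired analysis was run, because the labels name no animal or batch that links libraries between groups. Whether any such link exists is not known. Of the 9 genes, 0 were called for DOCA plus JK07 against control under all 20 alternatives. For DOCA against control, upper-quartile scaling called 1, beside 4391 of 17251 genes, and DESeq2 called 1, beside 6270 of 19585. The fit on log2(TPM + 1) called 2 of 8 tested, beside 3647 of 10319 genes. On log2(TPM + 0.1) 3 of 8 were called, beside 3941 of 10319, and unfiltered log2(TPM + 1) called 2, beside 4954 of 19586. Leaving out each control or JK07 library called 0, and the fits without a DOCA library rest on 1. For DOCA plus JK07 against DOCA the same fits called 1, 1, 2, 2 and 2, beside 2847, 5049, 3969, 4143 and 5355 genes. Leaving out each control or JK07 library again called 0. Over all genes, quality weights called 161 for DOCA against control, 5 for DOCA plus JK07 against DOCA and 8 for DOCA plus JK07 against control. DESeq2 called 5049 and 116 for DOCA plus JK07 against DOCA and against control, and unfiltered log2(TPM + 1) 5355 and 5. Leaving out each library gave 3307 to 5286, 2277 to 4455 and 0 genes.

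Directions turned only for differences that had not passed the test. For DOCA against control, log2(TPM + 1), log2(TPM + 0.1) and unfiltered log2(TPM + 1) gave −0.16, −0.19 and −0.16 for KLF15 and −0.45, −0.60 and −0.45 for SGK1, the unfiltered fit gave −0.16 for TSC22D3, and quality weights gave −0.23 for SGK1. For DOCA plus JK07 against DOCA the same 3 TPM fits gave 0.20, 0.20 and 0.20 for FKBP5, 0.62, 0.70 and 0.62 for KLF15, 0.37, 0.43 and 0.37 for KLF9, 0.58, 0.60 and 0.58 for PER1, and 0.34, 0.48 and 0.34 for SGK1. For DOCA plus JK07 against control they gave 0.13, 0.13 and 0.13 for ZBTB16, and quality weights gave −0.0066 for NR3C1. Deposited TPM counts ribosomal RNA in its total; the cause of these turns was not tested.

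Leaving out each library in turn gave −0.0081 to 0.25 for TSC22D3, −0.066 to 0.73 for KLF15, −1.09 to 0.84 for SGK1 in DOCA against control, and −1.02 to 0.041 for FKBP5, −0.065 to 9.78 for HSD11B1, −0.42 to 0.37 for KLF15, −0.80 to 0.57 for PER1, −1.13 to 0.80 for SGK1, −0.067 to 0.48 for TSC22D3 in DOCA plus JK07 against DOCA (9.78 is against a lone DOCA library at 0 and is no size), and −0.032 to 0.085 for NR3C1, −0.19 to 0.029 for ZBTB16, −0.015 to 0.59 for TSC22D3, −1.49 to 0.0055 for HSD11B1 in DOCA plus JK07 against control.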

Other observations

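The named genes whose profile over the 10 libraries lay closest to each corticosteroid gene were listed, by the root-mean-square difference of log2 CPM after subtracting each gene's mean, over 7675 named genes above 0 in all libraries. This is a description of 10 libraries in which both DOCA libraries are thinly covered, with no test. NR3C2 was closest to ZMYND8, CDK5RAP2 and P4HTM, at 0.109, 0.124 and 0.133. NR3C1 was closest to REV1, ZNF304 and FUBP3, at 0.0654, 0.118 and 0.120. KLF15 had DDX39B, RBPMS and HYPK at 0.0932, 0.0977 and 0.137, and KLF9 had RNF146, SERP1 and TMED9 at 0.144, 0.164 and 0.180. For ZBTB16 the values were 0.196 for SLC3A2, 0.210 for SH3BP5L and 0.214 for PEA15, and for TSC22D3 they were 0.192 for HPS1, 0.211 for SIDT2 and 0.212 for SLC8B1. SGK1 had 0.242 for PHETA2, 0.247 for C1orf115 and 0.251 for GPRC5B, and FKBP5 had 0.366 for IL1RAP, 0.407 for CYB5B and 0.442 for STX7. HSD11B1 was not compared, being listed at 0 in library 6. Among the corticosteroid genes themselves, the closest pair was ZBTB16 and KLF15 at 0.372, and NR3C2 and NR3C1 differed by 0.418.

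Of 14 tested genes of the Krüppel-like factor family, 0 were higher and 2 lower in DOCA than in control (14.3% called, beside 25.5% of all genes), and 2 were higher and 0 lower in DOCA plus JK07 than in DOCA (14.3% called, beside 17%). These were KLF12 and KLF8, both listed at 0 in libraries 6 and 7. Zeros were common in those libraries, at 19.2% and 23.8% of genes above 0 in at least 8 libraries. In each comparison the call was lost in 1 alternative, of 20 for KLF12 and of 18 for KLF8. KLF12 had 4.55 to 7.98 CPM with DOCA plus JK07 and 5.77 to 8.84 CPM in controls, and KLF8 had 1.02 to 1.88 and 1.01 to 2.00 CPM in the same groups.

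For DOCA against control, where 25.5% of all genes were called, the markers of other cells gave 1 lower of 12 fibroblast genes, 1 of 10 endothelial genes, 2 of 9 smooth muscle and pericyte genes, 0 of 10 macrophage and monocyte genes and 0 of 5 tested adipocyte genes, with 0 higher in each. The summed smooth muscle and pericyte level was 109.7 to 142 CPM with DOCA plus JK07, 78.6 and 82.1 CPM in DOCA, and 92.6 to 145 CPM in controls, lowest in both DOCA libraries. The same counts, as genes higher, were found for DOCA plus JK07 against DOCA, and 1 of 10 cardiomyocyte genes was lower in DOCA than in control and 0 were called in DOCA plus JK07 against DOCA.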
